A study of Homo sapiens with 8 samples.

Results

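CpG methylation in cells lacking the de novo methyltransferases DNMT3A and DNMT3B was compared between early passages 6, 7 and 8 and middle passages 11, 13 and 17, with the question of which stretches of the genome lost methylation first. These were 6 of the 8 libraries of the series, chosen by their passage label alone, with 1 library at each passage. Passages 27 and 28 were not used. The cells are HUES64, an established human embryonic stem cell line, and reduced representation bisulfite sequencing (RRBS) reads methylation in a CpG-rich part of the genome cut out with a restriction enzyme. All 6 libraries share 1 genotype, which the labels give as DMNT3A/3B knockout and as DNMT3A/3B DKO, and no treatment is named. Unedited HUES64 cells were not analysed here. Whether the 6 passages trace 1 culture or clone over time is not stated in the labels. If they do, successive libraries are not independent. The permutation p-values below, which treat the order of the libraries as exchangeable, can then be too small. They describe only how the levels of these 6 libraries ran with passage or group, and differences between libraries may be technical.

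DNMT3A and DNMT3B place methyl groups on unmethylated CpGs. DNMT1 copies the pattern of the old DNA strand onto the new one after replication, and it is not named as disrupted in the labels. When copying misses a site, de novo activity can restore the mark, and without it a missed site stays unmethylated in the daughter strands. CpG-dense promoters of human cells are mostly unmethylated, whereas gene bodies and the sparse CpGs between genes are mostly methylated. In embryonic stem cells both de novo enzymes are normally abundant.

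Reads were summed over 113635 autosomal tiles of 1000 bases, each with at least 3 CpGs that had 5 or more reads in all 6 libraries. The mean level of these tiles fell from 52.3% ± 0.323 (SD, n = 3 libraries) at the early passages to 49.1% ± 1.07 (SD, n = 3) at the middle passages. Tiles that were partly methylated at passages 6 to 8 lost the most, and tiles within 5 Mb of a chromosome end lost more than tiles farther in. Tiles that were 90% or more methylated kept 97.1% of their level. CpG-rich promoters had almost no methylation to lose.

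The deposited positions carry no gene names, and promoters were therefore placed by matching the CpG spacing of RefSeq promoter sequences (assembly GRCh38.p14, from 250 bases before to 50 after a gene start) to the listed hg19 CpGs. Of 33725 autosomal promoter sequences, 20419 had enough CpGs to be tried, 11325 matched exactly 1 place, and 99.8% of these lay on the chromosome RefSeq gives. In 8162 of the placed sequences, of 7620 genes, at least 3 CpGs had 5 or more reads in every library. Among these, 4 lost methylation by the test described below, and their sequences are shown because they are the only stretches with a gene name that passed it. Each is printed 5′ to 3′ on the gene's strand, with the CpGs that entered the level in capitals.
PPP3R2 (chr9:104357202-104357501, minus strand): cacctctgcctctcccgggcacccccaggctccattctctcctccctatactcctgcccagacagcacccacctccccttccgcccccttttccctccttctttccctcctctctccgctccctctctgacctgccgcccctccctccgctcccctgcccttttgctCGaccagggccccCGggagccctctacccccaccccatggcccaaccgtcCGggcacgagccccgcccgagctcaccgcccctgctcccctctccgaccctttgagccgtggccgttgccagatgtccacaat
LRMDA (chr10:77542269-77542568, plus strand): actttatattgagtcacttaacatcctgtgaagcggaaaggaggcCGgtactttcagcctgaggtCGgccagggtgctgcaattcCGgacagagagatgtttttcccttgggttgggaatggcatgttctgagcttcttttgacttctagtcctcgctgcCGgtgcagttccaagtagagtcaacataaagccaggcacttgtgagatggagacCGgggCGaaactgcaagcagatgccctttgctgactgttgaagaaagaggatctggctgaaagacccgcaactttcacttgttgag
LINC02138 (chr16:89232541-89232840, plus strand): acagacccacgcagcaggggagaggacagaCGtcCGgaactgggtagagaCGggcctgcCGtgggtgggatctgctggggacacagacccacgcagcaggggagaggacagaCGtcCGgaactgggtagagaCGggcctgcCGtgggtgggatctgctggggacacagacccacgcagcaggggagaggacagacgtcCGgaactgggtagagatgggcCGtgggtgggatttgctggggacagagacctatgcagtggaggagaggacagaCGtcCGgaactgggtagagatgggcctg
PERCC1 (chr16:1480829-1481128, plus strand): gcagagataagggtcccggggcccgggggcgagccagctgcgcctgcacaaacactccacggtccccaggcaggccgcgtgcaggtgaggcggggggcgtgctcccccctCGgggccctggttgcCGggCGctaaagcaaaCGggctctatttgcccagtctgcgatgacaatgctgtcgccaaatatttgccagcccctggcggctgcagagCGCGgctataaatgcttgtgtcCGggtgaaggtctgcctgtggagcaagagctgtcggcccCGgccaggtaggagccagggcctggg
The measured CpGs cluster around CCGG, a palindrome that is the cutting site of MspI, the enzyme commonly used for RRBS. CCGG occurs 3 times in the PPP3R2 sequence, 4 times in the LRMDA sequence, 4 times in the LINC02138 sequence and 5 times in the PERCC1 sequence. It occurs in 63.2% of all 33725 promoter sequences and in 100% of the 8162 analysed. The LINC02138 sequence is made of near-identical repeats, between which short reads can be misplaced.

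The libraries differed in depth, with 44599588 reads over CpGs at passage 6 and between 19898423 and 24156907 at the other 5 passages. Of 2855727 autosomal CpGs listed in any of the 6 files, 950394 had 5 or more reads in all of them, with a median coverage of 22 reads at passage 6 and 10 to 12 elsewhere. Giving each of these CpGs the same weight, the mean level was 45.0% at passage 6, 44.9% at passage 7 and 44.5% at passage 8, and then 42.8% at passage 11, 42.5% at passage 13 and 41.1% at passage 17. All 3 middle libraries lay under all 3 early ones, with means of 44.8% ± 0.253 and 42.1% ± 0.897 (SD, n = 3 each), a difference of -2.67 points. With 3 libraries against 3, the two-sided exact permutation p was 0.10, the smallest this design allows. The slope on passage number was -0.373 ± 0.0289 points per passage (SE), with a two-sided exact permutation p of 0.00139 for Pearson's r = -0.988 over the 720 orders of the 6 libraries, which is the smallest p they allow. The share of CpGs at 80% or more fell from 35.5% at passage 6 to 31.6% at passage 17, and the share at 20% or less rose from 44.3% to 48.5%. No pair of libraries agreed within counting noise, the mean chi-square per CpG being at least 1.43. This value does not show that the libraries are independent. Each was counted as its own sample because it is the 1 library of its passage.

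Loss was strongest where methylation was already intermediate. Tiles were grouped by their mean level over passages 6 to 8. In the 8041 tiles starting between 40 and 60%, the level was 50.9% ± 1.42 (SD, n = 3) at the early passages and 42.6% ± 3.01 at the middle ones, a fall of 8.29 points that left 83.7% of the starting level. The 6111 tiles starting between 20 and 40% went from 30.1% ± 1.34 to 22.3% ± 2.41 and kept 74.3%. The 3371 tiles starting between 10 and 20% went from 14.7% ± 1.02 to 10.1% ± 1.19 and kept 68.3%.

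Highly methylated tiles moved less in points and far less as a share of their start. The 21944 tiles starting between 60 and 80% fell by 4.36 points, from 72.2% ± 0.724 to 67.8% ± 1.79, and kept 94.0%. Those between 80 and 90%, 21567 in number, fell by 3.65 points and kept 95.7%, and the 19689 at 90% or more fell by 2.68 points, from 94.1% ± 0.324 to 91.4% ± 0.637, and kept 97.1%. The 32912 tiles starting under 10% had a mean of 0.945% ± 0.0849 and went to 0.687% ± 0.0637. In each of these 7 classes the 3 middle libraries lay under the 3 early ones, and each slope on passage passed the exact permutation test after Benjamini-Hochberg adjustment over the 25 trends computed (adjusted p from 0.00267 to 0.0125).

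The differences between classes were tested on the share of the starting level kept in each library. The share kept by tiles of 40 to 60% fell faster than that of tiles at 90% or more, with a difference in slope of -1.96 ± 0.148 percent of the start per passage (SE), with an exact permutation p of 0.00139 and an adjusted p of 0.00417 over 9 differences. The share kept by tiles of 20 to 40% fell faster than that of tiles of 80 to 90%, with a difference of -3.01 ± 0.280 per passage, with an exact permutation p of 0.00139 and the same adjusted p. Passages 6 to 8 both set the class and enter the change. Classes set from passage 6 alone, with the change taken from passages 7 and 8, kept 74.2% at 20 to 40%, 83.6% at 40 to 60% and 97.9% at 90% or more, which is close to the values above.

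**Figure D1:**
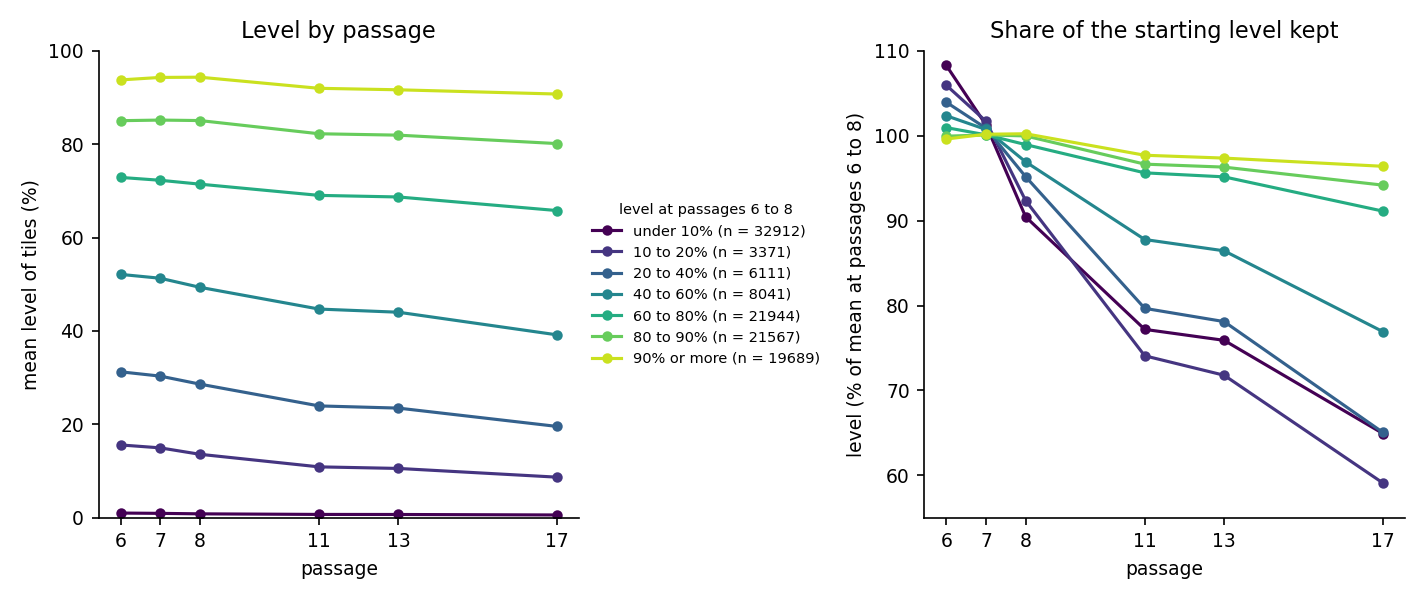
Mean methylation level of tiles (left, percent) and the same as a percent of the mean over passages 6 to 8 (right), against passage number, for 7 classes of starting level. Each point is 1 library, and the number of tiles is in the key. The lines of tiles starting at 90% or more stay nearly flat, while tiles starting between 40 and 60% drop from 50.9% to 42.6% between the group means and those under 40% lose the largest share of their start.

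Tile by tile, methylated and unmethylated reads were compared between the groups by a quasi-binomial fit with moderated dispersion, in the 83446 tiles with at least 10 reads of each state. Of 30189 tiles left out, 27624 started under 10% and 2554 at 90% or more, so the tested tiles under-represent both extremes. A tile was called at a Benjamini-Hochberg adjusted p under 0.05 and a change of at least 10 points. By this rule 6040 tiles lost methylation, which is 7.24% of those tested, and 93 gained it, which is 0.111%. The median change of the losing tiles was -21.5 points, with quartiles of -27.3 and -16.7, and 168 fell by 40 points or more. The median change of all tested tiles was -2.84 points, and 68.9% of them had a lower middle mean.

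In 5510 of the 6040 losing tiles all middle libraries lay under all early libraries, against 18.3% of all tested tiles. The losing tiles were called on these same levels, so this separation is largely built into the call. The count of losing tiles rests on 2 libraries more than on the others: it was 2509 without passage 6 and 2904 without passage 17. It was 4825 with reads thinned to equal totals, and limma on logit levels, which gives each library the same weight whatever its reads, called only 100 losing and 5 gaining tiles of the same 83446. Losing tiles had a median of 505 reads against 337 for all tested tiles.

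By starting level, 20.03% of tested tiles of 20 to 40% and 16.8% of those of 40 to 60% were losing. The 5288 tested tiles starting under 10% could not fall by the 10 points a call needs. The share was 12.1% at 10 to 20%, where a fall of 10 points is close to all there was to lose, 7.72% at 60 to 80%, 3.95% at 80 to 90% and 3.00% at 90% or more. The median losing tile stood at 60.6% at the early passages and at 33.5% at the middle ones. At passage 17, 2469 losing tiles, or 40.9%, were under 20%, and 1664 were under 20% at passage 11 already.

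Much of the loss was present at the first middle passage. Over all tiles, 55.7% of the change seen at passage 17 had been reached at passage 11 and 61.6% at passage 13. A constant rate from passage 7, the mean early passage, would give 40% and 60%. The share reached at passage 11 ranged from 49.3% in tiles of 60 to 80% to 65.04% in tiles under 10%. With 1 library per passage, no test of a single passage could be made.

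Among tested tiles, 10.6% at passage 11 were at least 10 points under the lowest early library, 12.2% at passage 13 and 18.0% at passage 17. The opposite, at least 10 points over the highest early library, held for 1.82%, 2.02% and 1.48%. By starting level, the share under at passage 11 was highest in tiles of 40 to 60%, at 19.9%, and of 20 to 40%, at 17.6%, and it was 12.9% at 60 to 80%, 9.76% at 80 to 90% and 6.61% at 90% or more. At passage 17 the same classes stood at 36.6%, 32.9%, 21.3%, 15.2% and 10.3%, so the order by starting level at passage 17 was that of passage 11. In tiles of 10 to 20%, which can barely fall by 10 points, the shares were 4.19% at passage 11 and 9.56% at passage 17. The opposite share at passage 11 also differed by class. It was 3.57% at 40 to 60%, 3.08% at 20 to 40%, 3.55% at 60 to 80% and 0.830% at 80 to 90%. How much counting noise adds to this order was not tested.

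Of the losing tiles, 2470, or 40.9%, were 10 points or more under every early library from passage 11 on. Another 1438, or 23.8%, stayed under from passage 13, and 1268, or 20.99%, were under at passage 17 but not at passage 13, of which 659 had also been under at passage 11. The other 864 did not meet this rule at passage 17. The call set passages 11, 13 and 17 together against the early ones, which favours tiles that were low at all of them. These shares are therefore partly built into the call. The tiles that were low from passage 11 had a median of 8 listed CpGs and 432 reads, against 12 listed CpGs and 643 reads in the 1268 tiles. Their shares within 5 Mb of a chromosome end were close, 48.4% and 53.9%.

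CpG density was counted as the CpG positions of a tile listed in any of the 6 files, and sparse and dense refer to this count. It can be lower than the number of CpGs in the sequence. The PPP3R2 promoter sequence, for instance, holds 16 CpGs, of which 9 were listed. Denser tiles started lower. Over all tiles, the 59167 with 3 to 9 listed CpGs fell from 64.8% ± 0.377 to 61.0% ± 1.26 (SD, n = 3), by 3.84 points, and the 29883 with 10 to 19 fell from 53.9% to 50.3%, by 3.60 points. The 12885 with 20 to 34 fell by 1.93 points, from 27.5% to 25.5%. The 11700 dense tiles, with 35 or more, started at 12.6% ± 0.0480 and fell by only 0.477 points, to 12.1% ± 0.138.

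In tiles with a start of 60% or more, the fall was 3.61 points with 3 to 9 listed CpGs, 3.69 with 10 to 19, 3.75 with 20 to 34, and 1.82 with 35 or more, where the level went from 89.6% ± 0.196 to 87.8% ± 0.656. Dense tiles lost more slowly than sparse ones by 0.241 ± 0.0267 points per passage (SE; exact permutation p = 0.00417, adjusted p = 0.0075). Dense tiles started higher, however. With the same mix of starting levels in both classes, an alternative added after the data were seen, the difference was -0.0086 ± 0.0280 points per passage, with an exact permutation p of 0.764. The difference was larger, 0.327 ± 0.0590 (exact permutation p = 0.0125), in tiles with a start of 80% or more. Tiles with 20 to 34 listed CpGs did not differ from sparse ones by more than the spread of the libraries (-0.0313 ± 0.0238 per passage, exact permutation p = 0.263), and they fell faster once the starting levels were matched (-0.161 ± 0.0327, exact permutation p = 0.00833). Among tiles starting at 80% or more they fell more slowly (0.167 ± 0.0457, exact permutation p = 0.0361).

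Density and starting level crossed. In tiles that started at 60 to 80%, the 797 with 20 to 34 listed CpGs fell by 8.88 points and the 176 with 35 or more fell by 7.39, while the 16052 sparse ones fell by 3.65. In tiles that started at 90% or more the order was the opposite: the 11804 sparse tiles fell by 3.11 points, the 5352 with 10 to 19 listed CpGs by 2.44, the 1624 with 20 to 34 by 1.51, and the 909 dense tiles by 0.700. Of the tested tiles starting at 60% or more, 4.22% with 3 to 9 listed CpGs, 6.12% with 10 to 19, 9.48% with 20 to 34 and 5.55% with 35 or more were losing. Denser tiles also had more reads, with medians of 269 in the sparsest class and 605 with 20 to 34. What this depth adds to the counts of calls and to the crossing was not tested here. Passages 6 to 8 set the starting level and also enter the change. Over all densities, classes set from passage 6 alone fell by 1.89 points at 90% or more and 4.94 at 60 to 80%. With passages 6 to 8 these falls were 2.68 and 4.36. The crossing was not repeated with classes from passage 6 alone.

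**Figure D2:**
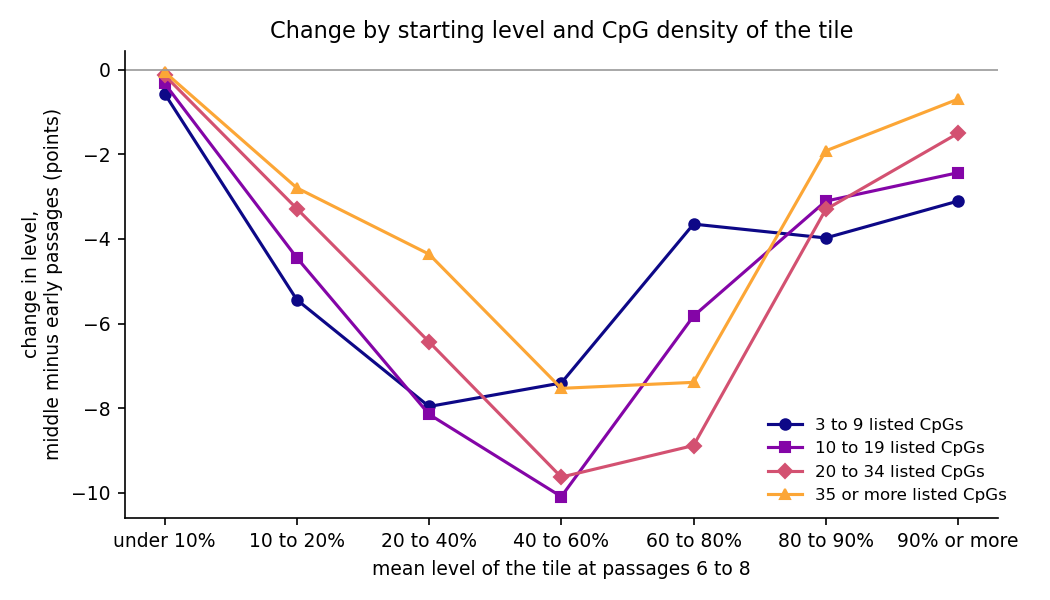
Change in methylation level between early and middle passages (middle minus early, percentage points) against the starting level of the tile, for 4 classes of listed CpGs per tile. Each point is the difference of the means of 3 libraries against 3. The lowest point of every density class but the sparsest lies at a start of 40 to 60%, reaching -10.1 points with 10 to 19 listed CpGs; that of the sparsest lies at 20 to 40%, and dense tiles at 90% or more lie near the line of no change, at -0.700.

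Nearness to a dense tile was examined in tiles starting at 60% or more. Those 1 or 2 tiles from a dense tile fell by 3.76 points and those over 10 tiles away by 3.47, a difference in slope of -0.0329 ± 0.0193 points per passage (SE) that did not exceed the spread of the libraries (exact permutation p = 0.160, adjusted p = 0.205). Tiles 3 to 10 tiles away fell by 4.70 points, and 8.31% of them were losing, against 4.50% of tiles over 10 tiles away. Dense tiles themselves fell more slowly than distant tiles, by 0.225 ± 0.0231 per passage (exact permutation p = 0.00278, adjusted p = 0.00625), and with matched starting levels this difference was -0.0204, with an exact permutation p of 0.378.

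Position along the chromosome separated tiles of the same starting level. Distance was taken to the nearer outermost listed CpG of the autosome. Among tiles starting at 60% or more, the 11920 that lay 1 to 5 Mb from an end fell from 82.6% ± 0.356 to 77.3% ± 1.83 (SD, n = 3), by 5.37 points, and the 3930 within 1 Mb fell from 83.6% ± 0.312 to 78.8% ± 1.67, by 4.80 points. The 17236 tiles at 5 to 20 Mb fell by 3.57 points, and the 30114 at 20 Mb or more fell by 2.75 points, from 83.9% ± 0.0957 to 81.1% ± 0.928.

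Tiles at 1 to 5 Mb lost faster than tiles at 20 Mb or more, with a difference in slope of -0.366 ± 0.0344 points per passage (SE; exact permutation p = 0.00139, adjusted p = 0.00417), and for tiles within 1 Mb the difference was -0.288 ± 0.0332 (exact permutation p = 0.00556, adjusted p = 0.00833). With matched starting levels the differences were -0.339 and -0.289, and in tiles of 3 to 9 listed CpGs alone they were -0.286 and -0.204. Among tiles starting at 80% or more they were smaller, -0.177 ± 0.0143 (exact permutation p = 0.00278) and -0.112 ± 0.0178 (exact permutation p = 0.00556). Leaving out chromosomes 13, 14, 15, 21 and 22, whose lower end in the files lies by the centromere, gave -0.382 and -0.312. These settings, other than the start of 80% or more, were added after the data were seen. At a minimum of 20 reads per CpG, which left 883 tiles of all kinds, the value for the outermost 1 Mb was 0.0262.

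The profile was not monotonic at the very end. The fall was 3.77 points in the outermost 0.5 Mb, 5.58 points from 0.5 to 1 Mb and 5.86 points from 1 to 2 Mb, and then became smaller with distance, at 5.02 points from 3 to 5 Mb, 3.95 points from 5 to 10 Mb and 2.66 points beyond 40 Mb. The order was already there at passage 11, with changes of -2.98, -4.35 and -4.46 points in the 3 outermost bins and -1.97 points beyond 40 Mb. Of all losing tiles, whatever their start, 50.2% lay within 5 Mb of an end, against 28.2% of tested tiles.

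**Figure D3:**
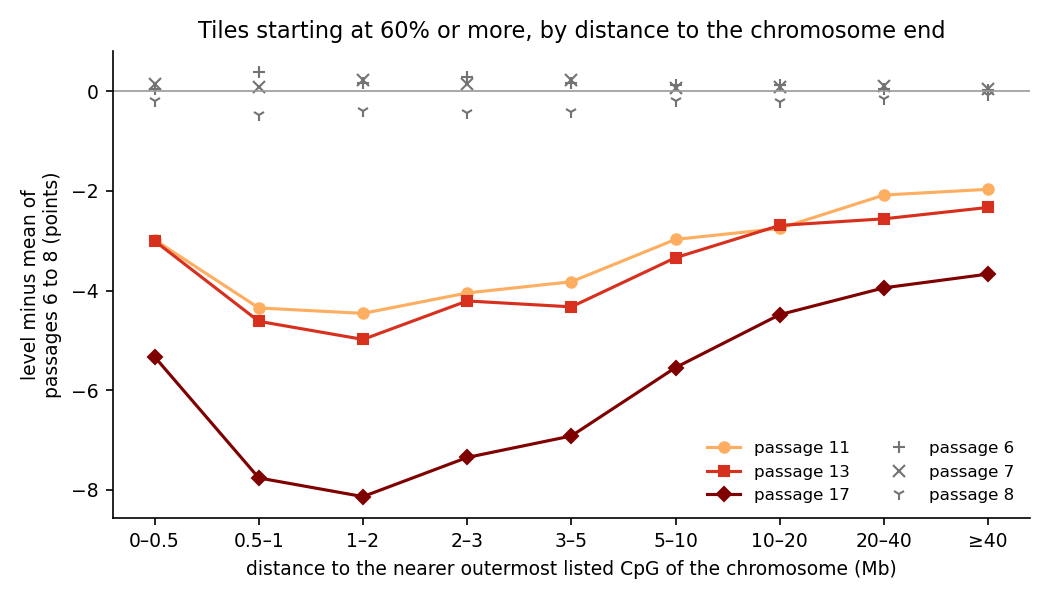
Methylation level minus the mean of passages 6 to 8 (percentage points) in tiles starting at 60% or more, by distance to the nearer end of the chromosome in Mb, with 1 point per library and distance bin. The early libraries lie within 0.5 points of 0 in every bin, and at passages 11, 13 and 17 the bins from 0.5 to 5 Mb lie lowest, reaching -8.14 points at passage 17 between 1 and 2 Mb.

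In points, the excess near chromosome ends was widest in tiles starting at 40 to 80%. Starting at 40 to 60%, tiles within 1 Mb fell by 11.7 points, those at 1 to 5 Mb by 10.9, those at 5 to 20 Mb by 7.85 and those at 20 Mb or more by 5.93. Starting at 60 to 80%, the falls were 7.36, 7.63, 4.18 and 2.63 points in the same order. The excess was smaller starting at 20 to 40%, with falls of 8.78, 9.74, 7.61 and 5.89 points. Starting at 10 to 20%, the falls were 4.82, 5.62, 4.87 and 3.69 points. Starting at 90% or more, they were 2.69, 3.03, 2.88 and 2.46 points, so distance made little difference there. The share of tested tiles that were losing reached 28.6% within 1 Mb and 23.4% at 1 to 5 Mb in the class of 40 to 60%, against 9.94% at 20 Mb or more. The interaction of level and distance was not tested.

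Chromosome ends differed among themselves. All 44 had 50 or more tiles starting at 60% or more within 5 Mb, and 35 of them fell more than the tiles 20 Mb or more from an end. The lower end of chromosome 4 fell from 82.2% ± 0.764 to 75.4%, by 6.86 points (n = 3 libraries each), with 68 of 458 tested tiles losing. The upper end of chromosome 20 fell by 6.83 points and that of chromosome 9 by 6.67. The lower end of chromosome 15, which lies by the centromere, fell by 1.72 points with none of 184 tested tiles losing. The upper end of chromosome 4 fell by 2.27 points and the lower end of chromosome 18 by 1.98. This ranking was made after the values were seen and has no test.

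By autosome, the fall in tiles starting at 60% or more ranged from 4.66 points on chromosome 20 (82.7% to 78.1%, 1822 tiles) to 2.66 points on chromosome 15 (83.3% to 80.6%, 1716 tiles). Chromosome 20 lost faster than the other autosomes, with a difference in slope of -0.134 ± 0.0296 points per passage (SE; exact permutation p = 0.0194, adjusted p = 0.0356 over 22), and chromosome 15 lost more slowly by 0.141 ± 0.0110 (exact permutation p = 0.00278, adjusted p = 0.0153). Away from the ends, in tiles 5 Mb or more from either, the changes were -3.91 points on chromosome 20, -3.94 on chromosome 19, -2.69 on chromosome 15 and -2.22 on chromosome 4. On chromosome 21, where 56.5% of these tiles lie within 5 Mb of an end, the change was -4.52 points for all and -3.09 points for those farther in.

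**Figure D4:**
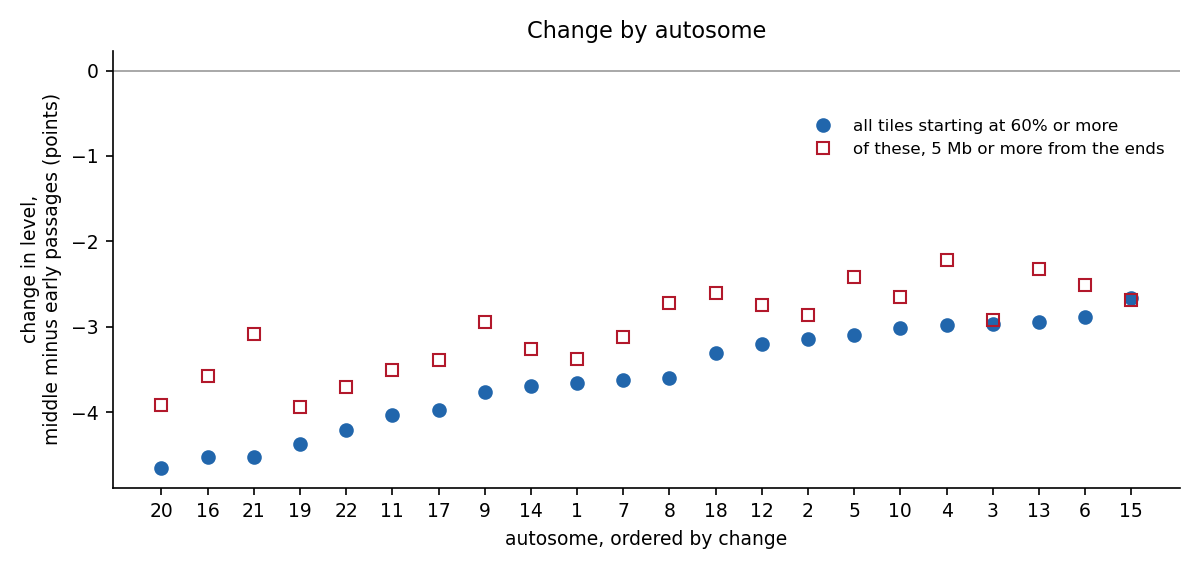
Change in methylation level (middle minus early passages, percentage points) of tiles starting at 60% or more on each autosome, ordered by size, for all such tiles (filled circles) and those 5 Mb or more from both ends (open squares). The filled circles run from -4.66 on chromosome 20 to -2.66 on chromosome 15, and the squares lie above the circles on every autosome but 15.

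Losing tiles lay next to each other more often than tested tiles in general. Of 3666 tested direct neighbours of losing tiles, 1014 or 27.7% were losing too, against 12.8% of 28744 tested neighbours of tested tiles. Adjoining tiles are not independent, and the shares are given as a description. In windows of 1 Mb with at least 20 tested tiles, a median of 5% of tiles were losing over 1118 windows, and 249 windows had no losing tile. In 19 windows the share was 20% or more, and 13 of these reach within 5 Mb of an end, as 213 of all 1118 do.

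The window with the largest share was chr4:3000001-4000000, with 39 of 154 tested tiles losing, or 25.3%. On chr10:134000001-135000000 the count was 59 of 250, or 23.6%, and on chr22:46000001-47000000 it was 35 of 155, or 22.6%. The windows chr13:101000001-102000000, with 5 of 22, and chr7:150000001-151000000, with 18 of 82, completed the 5 largest shares, and only the latter 2 of these 5 lie over 5 Mb from an end. None of the tested tiles was losing on chr1:28000001-29000000 (78 tested), chr11:62000001-63000000 (73), chr1:149000001-150000000 (70), chr7:56000001-57000000 (69) and chr6:27000001-28000000 (68), where median changes ran from -1.68 to -1.12 points. All 5 lie over 20 Mb from an end.

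Single tiles show how complete the early loss could be. At chr17:79164001-79165000, 2.02 Mb from the chromosome end, 51.8%, 73.4% and 66.3% of reads were methylated at passages 6, 7 and 8, and 16.7%, 5.79% and 5.22% at passages 11, 13 and 17. The lowest early library was at 51.8% and the highest middle one at 16.7%, so the groups did not overlap. The fall was 54.6 points, from 63.8% ± 11.0 to 9.22% ± 6.45 (SD, n = 3), with an adjusted p of 1.68e-05 by the quasi-binomial test over all tested tiles. It rests on 7 CpGs and 79 to 170 reads per library, which at passage 17 gives a 95% Wilson interval of 2.41% to 10.9%.

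At chr1:25193001-25194000, 25.2 Mb from the end, the level was 82.1%, 77.5% and 83.3% at the early passages and 43.3%, 21.7% and 14.3% at the middle ones. All 3 middle libraries lay well under the early ones, and the adjusted p was 0.000206, from 5 CpGs and 30 to 67 reads per library. The tile chr3:13896001-13897000 went from 60.3%, 71.2% and 41.2% to 15.7% at passage 11, and no methylated read was seen among 70 at passage 13 and 63 at passage 17, which allows a level of up to 4.29% and 4.76%. Wilson intervals and these limits cover counting error only, since duplicate reads are not marked.

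A further 4 of the 8 largest falls went down at every middle passage. At chr5:3854001-3855000 the levels were 60%, 82.0% and 60.7%, then 32.1%, 13.3% and 2.22%. At chr12:132393001-132394000 they were 74.0%, 71.2% and 64.6%, then 39.0%, 18.4% and 5.97%. At chr9:140683001-140684000, 0.460 Mb from the end, they were 62.1%, 67.1% and 53.6%, then 20.97%, 16.0% and 0.813%. In each of these the groups did not overlap, which the choice of tiles by largest fall favours.

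At chr4:7776001-7777000, the last of these 4, the levels were 68.2%, 78.7% and 77.3%, then 46.3%, 22.9% and 12.9%. The tile chr3:27674001-27675000 stood apart: it was at 23.3% at passage 6, 69.2% at passage 7 and 88.4% at passage 8, then at 5.77%, 12.6% and 16.0%. Its early libraries spread by an SD of 33.4 points, and its adjusted p was 0.0356. The call was lost with passage number in place of groups (adjusted p = 0.190), with limma (0.154), without the minimum of reads of each state (0.0574) and when any library other than passage 6 was left out (0.0541 to 0.145). Losing the call with limma was not particular to chr3:27674001-27675000. Only the tile with the largest fall of these 8 kept its call with limma (adjusted p = 0.0483). The others had adjusted p from 0.0634 to 0.154 with limma. Of these 8 tiles, 4 lie within 5 Mb of an end.

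The 5 tiles with the largest fall at passage 11, beyond those 8, mostly stood higher again later. At chr21:46902001-46903000 the early levels of 80.4%, 78.5% and 78.1% were followed by 25% at passage 11, 38.6% at passage 13 and 44.6% at passage 17. At chr21:46401001-46402000, levels of 81.9%, 82.5% and 91.2% were followed by 32.1%, 61.2% and 57.1%. At chr19:6233001-6234000 they were 67.0%, 69.2% and 71.4%, then 20.8%, 54.2% and 13.8%. These tiles were picked for a low value at passage 11, so a higher value at the next passage is partly built into the choice.

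At chr4:78034001-78035000 the level went from 79.1%, 89.3% and 78.6% to 35.8%, 75% and 44.6%, and at chr22:49912001-49913000 from 56.1%, 69.8% and 58.9% to 15.8%, 50.9% and 24.6%. In 4 of these 5 tiles, all but the first, the passage 13 level was the highest of the 3 middle ones. Tiles of this kind had 38 to 191 reads per library.

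At the other extreme stood the best-covered tiles that started at 90% or more. A run of 4 adjoining tiles, chr7:56438001-56442000, held 28 to 37 measured CpGs each and 2304 to 7424 reads per library. The first of them was at 91.3%, 90.8% and 91.7% at the early passages and at 91.4%, 90.9% and 89.9% at the middle ones, a change of -0.556 points (adjusted p = 0.569 by the quasi-binomial test). The second tile of the run, chr7:56439001-56440000, changed by -2.04 points (adjusted p = 0.0407), which is under the minimum of 10 points for a call, and the third and the fourth by -0.803 and -0.990 points. With an upper limit on coverage, which removes the CpGs with the most reads, the first and the fourth changed by -8.90 and -6.40 points, with adjusted p of 0.298 and 0.670. The tile chr21:48118001-48119000, with 97 measured CpGs, was at 90.9%, 88.1% and 91.1%, then 90.5%, 90.1% and 89.2%. It lies only 0.00104 Mb from the chromosome end, whereas the chr7 run lies 56.4 Mb from one. Why these tiles hold so many reads was not tested. None of these 5 tiles was called as losing.

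**Figure D5:**
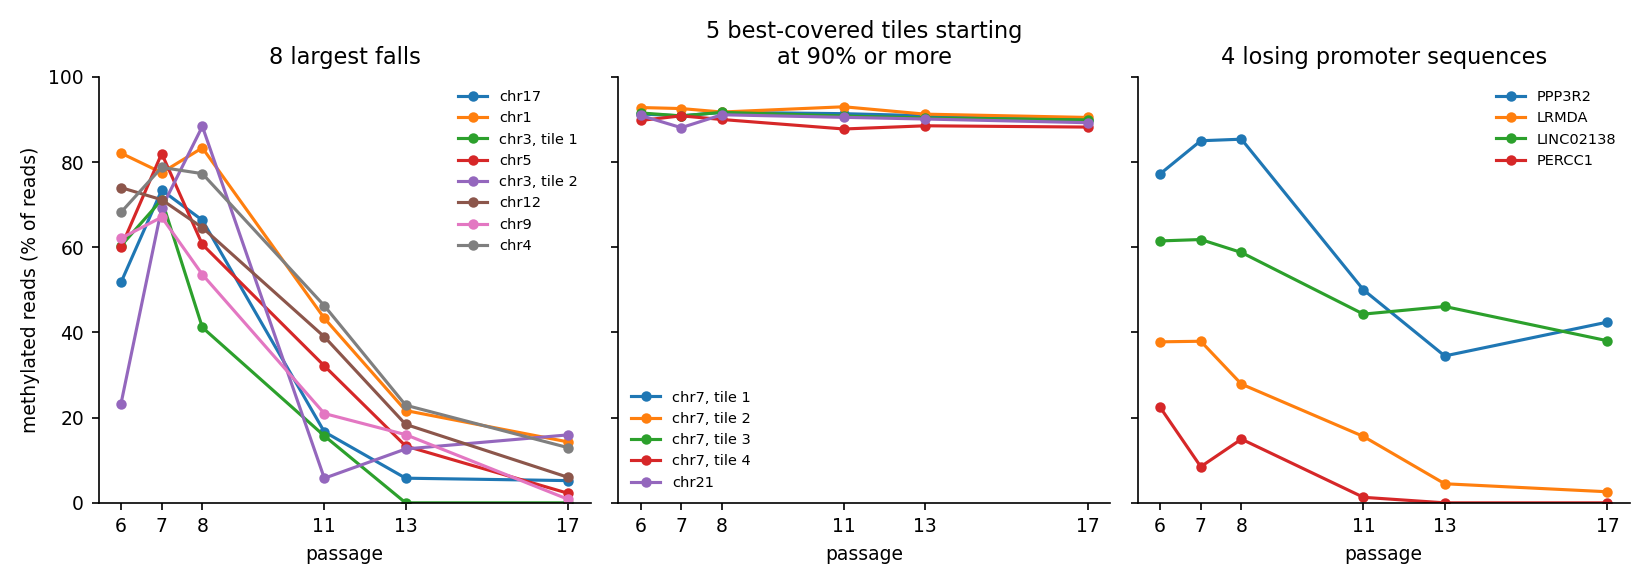
Methylated reads (percent of reads) by passage in 3 sets, with 1 point per library: the 8 tiles with the largest fall, the 5 best-covered tiles starting at 90% or more, and the 4 losing promoter sequences. The first set runs from mostly 50 to 90% down to under 20% at passage 17, the second stays near 90% throughout, and the promoters fall from different starting levels.

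Gains were rare. The 93 gaining tiles rose by a median of 20.8 points. The largest rise, at chr6:32632001-32633000, went from 23.3%, 0% and 48.0% to 100%, 81.5% and 56.3%, on 3 CpGs and 18 to 48 reads per library (adjusted p = 0.0141), so the early libraries did not agree among themselves. At chr1:209548001-209549000 the level rose from 43.6%, 30.8% and 28.0% to 68.4%, 66.7% and 87.9%. The tiles chr1:143647001-143648000, chr8:131406001-131407000 and chr20:55181001-55182000 rose by 38.0, 37.0 and 35.8 points. All 5 rest on 3 or 4 CpGs, and no minimum of 5 measured CpGs was set for this list. Among tiles of 5 or more CpGs, 30 were gaining. Without passage 6 the number of gaining tiles was 41.

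Promoters placed by their CpG spacing were nearly free of methylation at the outset. Of the 8162 sequences, 7882 or 96.6% were under 10% at passages 6 to 8, with a mean of 0.279% ± 0.00765 early and 0.250% ± 0.0182 at the middle passages. The 168 sequences between 10 and 60% fell by 4.82 points, from 29.96% ± 0.896 to 25.1% ± 1.78, and the 112 at 60% or more fell by 3.58 points, from 88.1% ± 0.169 to 84.5% ± 1.40. The slopes of all 3 classes passed the exact permutation test over 720 orders (adjusted p = 0.0319, 0.0271 and 0.00833 over 3). Only sequences with 8 or more listed CpGs could be placed, so CpG-poor promoters were not analysed here.

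The same fit was run over all promoter sequences, a comparison chosen after the data were seen, and 532 had enough reads of each state. Of these 4 were losing, 0.752%, against 0 gaining. However, 266 of the 532 started under 10% and could not fall by the 10 points a call needs. Losing were 2 of the 168 tested sequences of 10 to 60% and 2 of the 98 at 60% or more. The quasi-binomial test gave an unadjusted p under 0.05 with a rise for 8 sequences and limma for 9, and neither called a gain. The count of 4 was small and unstable: it was 0 when passage 8, 13 or 17 was left out, 1 without passage 7, 8 without passage 11, and 1 with limma. Without the minimum of reads of each state it was 35 of 3716.

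PPP3R2, which encodes a regulatory subunit of the phosphatase calcineurin known from testis, stood at 77.2%, 85.0% and 85.4% at passages 6, 7 and 8 and at 50%, 34.5% and 42.4% at passages 11, 13 and 17. All middle levels lay under the early ones, and the fall of 40.2 points had an adjusted p of 0.0482 by the quasi-binomial test. Only 3 CpGs and 20 to 79 reads per library stand behind it, and at passage 13 the 95% Wilson interval was 19.9% to 52.7%.

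LRMDA, a gene named for melanocyte differentiation, was at 37.8%, 37.9% and 27.9%, then 15.6%, 4.48% and 2.60%, over 6 CpGs (adjusted p = 0.0482). The level fell at each middle passage, and at passage 17 only 2 of 77 reads were methylated. LINC02138, a long non-coding RNA, was at 61.5%, 61.8% and 58.8%, then 44.3%, 46.1% and 38.0%, over 12 CpGs and 158 to 418 reads per library (adjusted p = 0.0330). Its early libraries were the closest of the 4, with an SD of 1.67 points.

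PERCC1, a gene known from enteroendocrine cells of the gut, was at 22.4%, 8.48% and 14.95%, then at 1.30% at passage 11. No methylated read was found among 157 at passage 13 and 149 at passage 17, which allows a level of up to 1.91% and 2.01%. Its adjusted p was 0.0330, and limma called this promoter alone. Its level rests on 8 CpGs.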

How the data were processed

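RRBS libraries of HUES64 DNMT3A/3B knockout cells from 6 passages were analysed on hg19, per the submitters' processing notes. The aligner, caller and filters remain not given in the sources used here. The fourth column of the deposited files holds methylated and total read counts per CpG, and the authors' score in the fifth is 1000 times their share, rounded, as checked on every line. The score was not used further. Levels came from the read counts with Python 3.11.15, numpy 2.4.6 and pandas 2.3.3. Tile fits used R 4.3.3 and limma 3.58.1 (squeezeVar, dispersion at least 1, two-sided F test, Benjamini-Hochberg). On 81665 simulated tested tiles, 96% of falls by 40 points and 30% of falls by 20 were recovered, 88% of rises by 40 and 32% of rises by 20, with 10 calls among unchanged tiles. Changed tiles, 50 of each kind, were drawn from intermediate levels only. All simulated tiles shared the median dispersion of the real fit, 1.48, whereas its prior value was 1.70 and real tiles vary around it. The rates therefore describe that setting and not the real tiles. Class trends used a least-squares slope and a two-sided exact permutation test over 720 orders.

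The comparison, classes and lists were chosen with earlier results of these data known. The named tiles were the 8 largest falls and 5 largest falls at passage 11 among losing tiles of at least 5 measured CpGs, the 5 largest rises, the 5 best-covered tiles starting at 90% or more, and 5 windows of largest and of smallest losing share. Named promoters are all those called. Promoters were placed by 5 successive CpGs whose spacing matched, with 8 or more CpGs listed and a shift shared with a neighbouring promoter, which 11274 met. Identical sets of measured CpGs were used once. Alternatives covered coverage minimums, tile length, CpGs per tile, thinned reads, limma on logit levels, class definitions and omission of each library.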

Additional observations from a re-analysis of the deposited data

How the results depend on the processing

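Depth set the limits: a coverage minimum of 10 reads left 13079 tested tiles, with 1780 losing and 17 gaining, and a minimum of 20 left 726, with 17 losing and 0 gaining (quasi-binomial test; 1 tile had an unadjusted p under 0.05 with a rise). Tiles of 5 or more CpGs gave 3512 and 30, limma on logit levels 100 and 5, and a minimum change of 20 points 3507 and 49. Omitting 1 library gave 2509 (without passage 6) to 6808 losing tiles, with 2904 without passage 17, and 41 to 122 gaining tiles. All 100 losing tiles of limma were among the 6040. At 20 reads per CpG the slope difference of the outermost 1 Mb was 0.0262, of tiles with 10 to 19 listed CpGs 0.162, of tiles 1 or 2 from a dense tile 0.123, and of the share kept at 20 to 40% -0.636. Tiles of 10 to 19 listed CpGs passed the test with values of -0.118 at 10 reads and -0.0418 with pooled reads. Tiles of 20 to 34 gave -0.0661 with pooled reads, 0.167 among tiles starting at 80% or more and -0.161 with matched starting levels, and -0.0462 to 0.00335 when 1 library was left out. With matched starting levels dense tiles gave -0.0086 against sparse and -0.0204 against distant tiles. Promoter counts were 35 losing and 3 gaining without the minimum of reads of each state, 1 losing with limma, and 0 to 8 losing and 0 to 1 gaining when 1 library was left out. The causes were not tested. The slope of the mean level ranged from -0.403 to -0.363 when 1 library was left out. Over the called tiles and promoters that are named, 190 alternative values kept the call, 61 kept the direction only, and none changed sign. For the named promoters alone, 14 values kept the call and 22 kept the direction only. With limma, the tile with the largest fall was the only named called tile to keep its call. The named rises all lost theirs with limma (adjusted p from 0.108 to 0.186). In the 5 best-covered tiles, none of them called, the sign of the change differed in 6 of 70 values. No paired analysis was possible because replicate numbers were assigned in order of accession and pair nothing, and no passage was sequenced more than 1 time.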
